A study of Mus musculus with 6 samples.

Results

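Heparan sulfate is a long, sulfated sugar chain attached to carrier proteins at the cell surface and in the matrix. Syndecans are transmembrane carriers, glypicans are held in the membrane by a lipid anchor, and the chains bind growth factors, chemokines and matrix proteins and hold them near the cell. The chain is polymerised in the Golgi by Ext1 and Ext2 and sulfated by enzymes such as Ndst1. After secretion it is edited by the sulfatase Sulf2 and cut by heparanase, the product of Hpse. In the lung, heparan sulfate lines epithelium, endothelium and basement membrane, and macrophages carry syndecans themselves.

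The 10 genes described here are 5 carriers (Sdc1, Sdc2, Sdc3, Sdc4 and Gpc1), 3 enzymes of chain synthesis (Ext1, Ext2 and Ndst1) and 2 enzymes acting on finished chains (Sulf2 and Hpse). They were picked by name from the 22962 genes of the table, and all 10 matched a row. They were picked with the difference between bleomycin and saline libraries known, so that difference is given for them as a description, with no test. RNA was sequenced from alveolar macrophages, the phagocytes of the air spaces, of C57BL/6 mice. One group of 3 libraries (replicates 1, 2 and 3) came from mice given saline into the trachea, and the other group of 3 (replicates 1, 2 and 5) from mice given bleomycin, a DNA-breaking drug used to model pulmonary fibrosis. In both groups the airways were lavaged at 2 weeks, red cells were lysed, and the cells that stuck to a plate within 30 min were kept. No allele or transgene is labelled, the age and sex of the mice are not labelled, and the labels do not say whether a library is 1 mouse or a pool. The p-values below therefore measure the spread between these libraries, which may be technical.

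Values are normalized read counts, that is, reads of a gene divided by the size factor of its library. The libraries held 27654799 to 37147983 reads, and a gene with 3 reads has a value of 2.59 to 3.3. The macrophage lysosomal protein Cd68 was high in every library, at 45026 to 49701 in saline and 56877 to 66427 in bleomycin libraries. The summed values of 10 resident alveolar macrophage markers were 518495 to 652210 in saline and 247822 to 370964 in bleomycin libraries. Of the resident markers 8 of 10 fell by limma (adjusted p under 0.05), where 3.9% of all tested genes were called lower and 9.76% higher. The summed values of 10 markers of monocytes and monocyte-derived macrophages were 8518 to 11201.5 in saline and 151551 to 281989 in bleomycin libraries, and all 10 rose. Among them Ly6c2 and Cx3cr1 were high enough to be tested only through their bleomycin values. A lower value of a transcript in such bulk RNA can be fewer cells that hold it or less of it per cell, and these cannot be told apart. In saline replicate 2 the transcript of the neutrophil gene S100a9 stood at 503, against 4.9 and 7.42 in replicates 1 and 3. Among the saline libraries S100a8, Retnlg and Csf3r were also highest in replicate 2, while the neutrophil genes Cxcr2 and Mmp8 were lowest in it. Bleomycin replicate 1 was the lowest of its group for 8 of the 12 summed marker lists examined. Values without saline replicate 2 or bleomycin replicate 1 are therefore given where they matter.

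The starts of 4 of the genes are shown, because 3 of them (Hpse, Sdc4 and Sdc1) went from low to high together while Sdc3 was abundant in both groups. RefSeq promoters on GRCm38.p6, from 250 bases before to 50 bases after the transcription start, were found for 6 of the 10 genes (Ext2, Hpse, Sdc1, Sdc3, Sdc4 and Sulf2). Capitals mark every match, on either strand, to the GC box GGGCGG, the TATA box TATAA, the AP-1 site TGANTCA, the E-box CACGTG, the PU.1 site GAGGAAGT, the EGR site GCGNGGGCG or the kappa B consensus; neighbouring matches run together.
Hpse, chr5:100719667-100719966, minus strand: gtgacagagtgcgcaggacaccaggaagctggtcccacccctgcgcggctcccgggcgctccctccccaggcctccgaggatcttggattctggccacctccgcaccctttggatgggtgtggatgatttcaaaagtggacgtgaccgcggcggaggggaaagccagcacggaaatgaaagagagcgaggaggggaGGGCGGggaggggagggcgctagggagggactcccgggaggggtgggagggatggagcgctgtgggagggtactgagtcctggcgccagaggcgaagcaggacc
Sdc4, chr2:164443139-164443438, minus strand: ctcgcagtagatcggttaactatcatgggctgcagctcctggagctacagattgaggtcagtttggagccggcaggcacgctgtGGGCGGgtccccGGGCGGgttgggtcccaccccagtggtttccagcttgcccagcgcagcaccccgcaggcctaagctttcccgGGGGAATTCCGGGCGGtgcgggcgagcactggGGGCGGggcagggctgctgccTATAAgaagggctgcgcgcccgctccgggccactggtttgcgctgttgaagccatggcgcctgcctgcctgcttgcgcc
Sdc1, chr12:8771146-8771445, plus strand: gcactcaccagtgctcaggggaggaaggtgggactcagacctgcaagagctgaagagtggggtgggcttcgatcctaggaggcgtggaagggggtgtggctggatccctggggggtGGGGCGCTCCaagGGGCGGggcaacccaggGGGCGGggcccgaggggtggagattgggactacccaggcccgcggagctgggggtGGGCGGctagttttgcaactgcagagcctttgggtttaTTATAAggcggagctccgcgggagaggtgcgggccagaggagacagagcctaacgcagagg
Sdc3, chr4:130792287-130792586, plus strand: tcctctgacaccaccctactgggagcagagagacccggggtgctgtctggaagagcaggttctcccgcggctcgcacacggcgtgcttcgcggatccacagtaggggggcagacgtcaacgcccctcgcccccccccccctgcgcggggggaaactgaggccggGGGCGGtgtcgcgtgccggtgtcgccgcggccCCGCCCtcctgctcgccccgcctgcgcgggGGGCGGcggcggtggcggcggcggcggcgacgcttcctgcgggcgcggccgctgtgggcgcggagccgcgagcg

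All 4 promoters held a GC box, with 4 matches in Sdc4, 3 in Sdc1, 3 in Sdc3 and 1 in Hpse, and 35.7% of the 32851 promoters in the table held at least 1. TATAA lay in Sdc4, with its first base 29 bases before the start, and in Sdc1 in overlapping matches 11 and 10 bases before the start, and 24.9% of all promoters held it. Sdc4 and Sdc1 each held 1 match to the kappa B consensus, the sequence read by NF-kB, as did 8.46% of all promoters. AP-1, E-box, PU.1 and EGR letters, held by 7.81%, 7.15%, 3.2% and 5.55% of all promoters, were not in these 4 windows. These matches describe letters only.

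Among the carriers, Sdc3 (ENSMUSG00000025743, chromosome 4, 130792537 to 130826319) was by far the most abundant syndecan transcript in both groups. It is the syndecan best known from the nervous system. Its value was 8847, 6916 and 7604 in the saline libraries, in replicate order, and 11133, 14710 and 16068 in the bleomycin libraries. Every bleomycin library lay above every saline library, with means of 7789 ± 978 and 13970 ± 2549 (SD, n = 3 each), a 1.78-fold difference (log2 0.83 ± 0.16, SE). All log2 differences are bleomycin minus saline on the log2(value + 1) scale, which understates changes of low genes. Exons of Sdc3 share 415 bases, 6.93% of their length, with the antisense gene Gm26716, whose reads cannot be told apart if counting ignored strand.

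Sdc4 (ENSMUSG00000017009, chromosome 2, 164424247 to 164443887) encodes a widely expressed syndecan of cell adhesions that is linked to protein kinase C signalling. Its value was 36.3, 30.4 and 46.7 in saline, against 942, 1190 and 1272 with bleomycin. The groups were far apart, with the lowest bleomycin library 20.2 times the highest saline library, and the log2 difference was 4.88 ± 0.22, or 29.5-fold. Among the 4 syndecans it had the smallest spread between bleomycin libraries, with the highest 1.35 times the lowest.

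Sdc1 (ENSMUSG00000020592, chromosome 12, 8771323 to 8793715), the syndecan of epithelium and plasma cells, was near the limit of detection in saline, with 3, 11 and 12 reads. Its value was 2.94, 12 and 12.7 in saline, against 124, 536 and 535 with bleomycin. Bleomycin replicate 1 stood well below the other two but still above all saline libraries, so the mean of 398 ± 238 has a wide error. The log2 difference was 5.22 ± 0.67 (37.2-fold), with 5.92 without bleomycin replicate 1 and 4.63 without saline replicate 1. Sdc2 (ENSMUSG00000022261, chromosome 15, 32920723 to 33034935), the syndecan of fibroblasts and other mesenchymal cells, had 0 reads in every saline library and 4, 4 and 13 reads in the bleomycin libraries. Its summed bleomycin value was 6.14 times a floor of 3 reads over the saline group. This ratio leaves out counting error and the spread between bleomycin libraries, so it is not a lower bound. Sdc2 lay below the filter of the fit.

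Gpc1 (ENSMUSG00000034220, chromosome 1, 92831645 to 92860779), a glypican that can act as a coreceptor for fibroblast growth factors, had the largest difference of the 10 genes. It had 4, 0 and 4 reads in saline libraries, for values of 3.92, 0 and 4.24, and values of 115, 591 and 576 in the bleomycin libraries. The log2 difference was 6.85 ± 0.81, the ratio of the group means was 157, and the log2 difference was 7.63 without bleomycin replicate 1 and 6.07 without saline replicate 2. With a pseudocount of 5 in place of 1 it was 5.54. As for Sdc1, bleomycin replicate 1 was low and replicates 2 and 5 were alike. Exons of Gpc1 share 977 bases, 18.9% of their length, with Ankmy1 on the opposite strand. Ankmy1 had values of 4.35 to 7.84 in saline and 0.898 to 13.2 in bleomycin libraries, of the size of Gpc1 in saline and far below it in bleomycin.

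**Figure D1:**
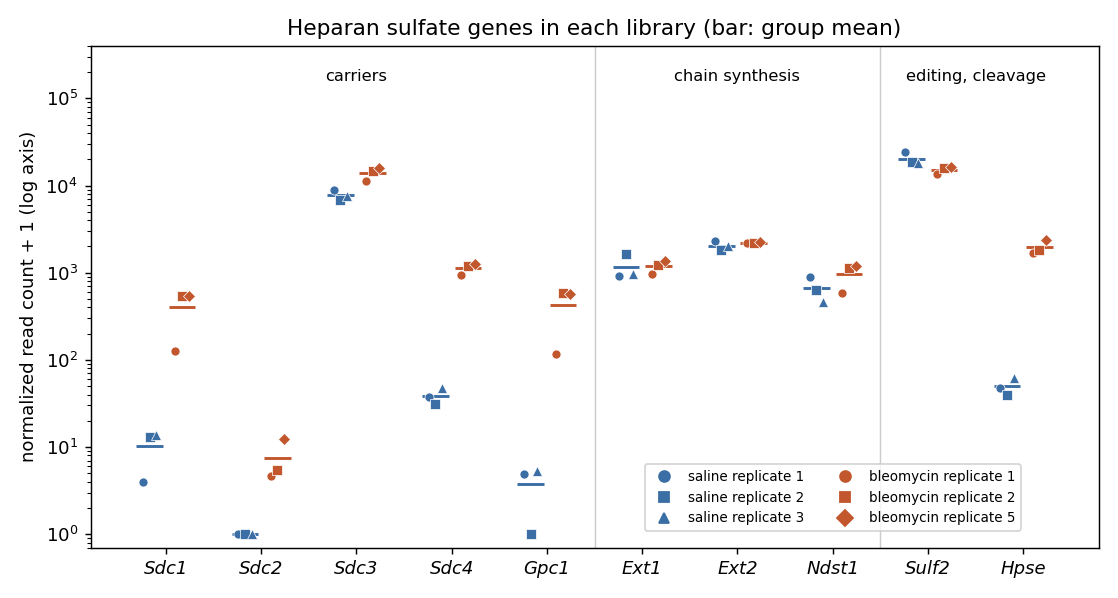
Normalized read count plus 1 (log axis) of each of the 10 genes in every library, with saline in blue, bleomycin in orange, marker shape for the replicate and a bar at the group mean (n = 3). Sdc1, Sdc4, Gpc1 and Hpse are low in saline and high in bleomycin, while Ext1, Ext2 and Ndst1 overlap between the groups.

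The makeup of the syndecan transcripts differed between the groups. Per kilobase of exon, the 4 syndecans summed to 1492, 1169.9 and 1291 in the saline libraries, in replicate order, and to 2263, 3065 and 3326 in the bleomycin libraries. Sdc3 made up 99, 98.7 and 98.3% of that sum in saline and 82.2, 80.1 and 80.7% in bleomycin libraries. Sdc4 went from 0.955, 1.02 and 1.42% to 16.4, 15.2 and 15%, most of the difference in the share of Sdc3. Sdc1 held 0.0518 to 0.268% in saline libraries, and 1.44, 4.59 and 4.23% in bleomycin replicates 1, 2 and 5. The share of the non-Sdc3 syndecans in the sum was much the same in the 3 bleomycin libraries, at 17.8 to 19.9%, although the share of Sdc1 itself was not.

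**Figure D2:**
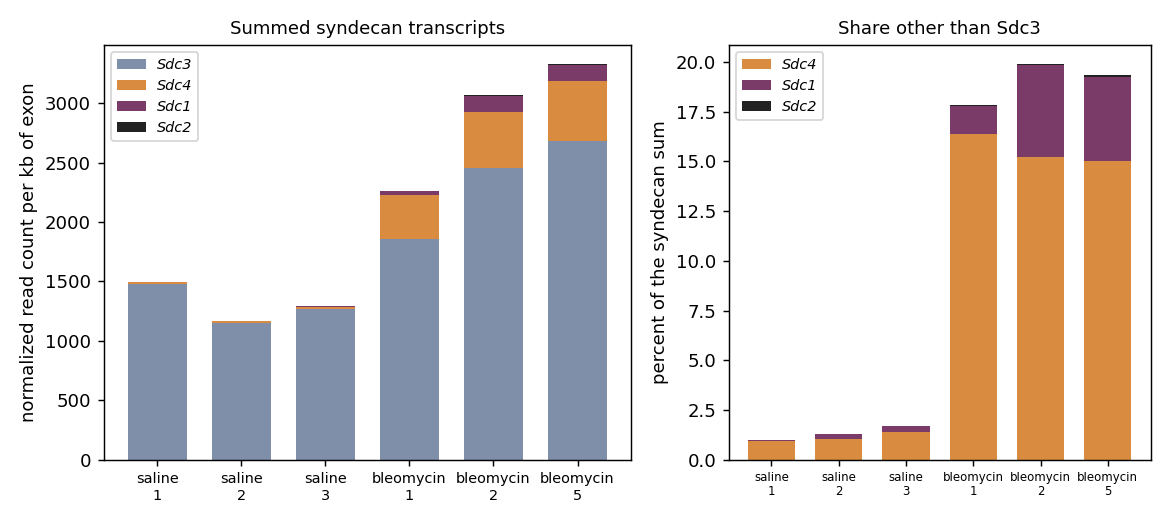
Left, summed syndecan transcripts in each library as normalized read count per kilobase of exon, stacked by gene; right, Sdc4, Sdc1 and Sdc2 as a percent of that sum. Saline bars are almost wholly Sdc3, whereas 17.8 to 19.9% of each bleomycin bar is other syndecans, most of it Sdc4.

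The enzymes that build the chain were expressed in both groups, and their values overlapped between the groups. Ext1 and Ext2 form the polymerase complex, and Ndst1 removes acetyl groups from the new chain and puts sulfate in their place. Ext2 (ENSMUSG00000027198, chromosome 2, 93661028 to 93822568) was the steadiest of the 10 genes, with values of 2299, 1808 and 2014 in saline, against 2208, 2207 and 2223 with bleomycin (log2 0.12 ± 0.12). The bleomycin libraries lay within the saline range. Ext1 (ENSMUSG00000061731, chromosome 15, 53064038 to 53346159) had values of 905, 1629.7 and 953 in saline, against 969, 1228 and 1349.8 with bleomycin (log2 0.06 ± 0.23). Saline replicate 2 was the highest of all 6 libraries for Ext1. Without it the log2 difference was 0.33, and with bleomycin replicate 1 dropped as well it was 0.47. Ndst1 (ENSMUSG00000054008, chromosome 18, 60684494 to 60748650) had values of 903, 634 and 458 in saline, against 578, 1119.6 and 1202 with bleomycin (log2 0.52 ± 0.32). Its groups overlapped only through bleomycin replicate 1, as bleomycin replicates 2 and 5 lay above every saline library. Without bleomycin replicate 1 the log2 difference was 0.86, the highest of the 17 alternatives run, and the lowest was 0.09. Each group spanned about the same range, with the highest library 1.97 times the lowest in saline and 2.08 times in bleomycin.

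Of the 2 genes whose products act on finished chains, Hpse was low but detected in saline libraries and Sulf2 was abundant throughout. Hpse (ENSMUSG00000035273, chromosome 5, 100679484 to 100719716) encodes heparanase, the endoglycosidase that cuts heparan sulfate inside the chain. Its value was 47.1, 38 and 60.4 in saline, against 1700.5, 1835 and 2384 with bleomycin, means of 48.5 ± 11.3 and 1973 ± 362. The lowest bleomycin library was 28.1 times the highest saline library, and the log2 difference was 5.33 ± 0.22, or 40.1-fold. Its size varied little, from 5.11 to 5.49 on the log2 scale, over the 17 alternatives run.

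Sulf2 (ENSMUSG00000006800, chromosome 2, 166073089 to 166155663) encodes an extracellular sulfatase that takes sulfate off glucosamine units and so alters what the chain binds. Its value was 24235, 18750.3 and 18018 in saline, against 13740.3, 15770.2 and 16142 with bleomycin. The groups did not overlap, but the gap was small, and the mean was 20334 ± 3398 in saline and 15218 ± 1293 in bleomycin libraries (log2 -0.41 ± 0.14, or 1.33-fold lower). Its exons share 154 bases, 2.62% of their length, with Ncoa3 on the opposite strand. With Hpse high and Sulf2 slightly lower, the ratio of Sulf2 to Hpse per kilobase of exon was 308, 295 and 179 in saline replicates 1, 2 and 3. In bleomycin replicates 1, 2 and 5 it was 4.84, 5.15 and 4.05.

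Set in order of level per kilobase of exon, the saline libraries ran from Sulf2 at 3464 ± 579 through Sdc3 at 1301 ± 163, Ext2 at 278 ± 33.7, Ext1 at 144 ± 50.2 and Ndst1 at 80.4 ± 27.1 to a low group. In the low group Sdc4 stood at 14.8 ± 3.23, Hpse at 13.8 ± 3.21, Sdc1 at 2.42 ± 1.43, Gpc1 at 0.528 ± 0.458 and Sdc2 at 0. Neighbours in this order did not overlap between libraries, apart from Sdc4 with Hpse, Sdc1 with Gpc1 and Gpc1 with Sdc2. In bleomycin libraries Hpse and Sdc4 had moved above the synthesis enzymes. Sulf2 at 2592 ± 220.2 and Sdc3 at 2333 ± 426 overlapped, as did Hpse at 561 ± 103 with Sdc4 at 446 ± 67.4. Ext2 at 302 ± 1.21 stood apart, and then came Ext1, Ndst1, Sdc1 and Gpc1, each overlapping the next, from 146 ± 24.1 down to 82.8 ± 52.4. Among the 22884 genes with a length, Hpse moved from rank 11533 in saline to rank 2546 in bleomycin, Sdc4 from 11419 to 3081, and Sulf2 from 438 to 586.

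Of the 9 genes above the filter, 6 did not overlap between the groups (5 higher and 1 lower), against 30.8% of all 13512 tested genes, 17.2% higher and 13.6% lower. Hpse, Sdc4, Sdc1 and Gpc1 were at least 16-fold higher, as were 1.86% of all tested genes. Since the 10 genes were picked with this difference known, nothing is read from these counts. Sdc1 and Gpc1 passed the filter only through their bleomycin values.

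The 4 genes that were low in saline did not share one pattern within the bleomycin group. Sdc1 and Gpc1 in bleomycin replicate 1 were at 0.231 and 0.197 times the mean of replicates 2 and 5, below 0.25, as were 0.799% of all tested genes and 2.58% of the 1319 genes called higher. Hpse and Sdc4 in the same library were at 0.806 and 0.765 times that mean, near Sdc3 at 0.723. Chosen by the nearest mean-centred log2 profile over the 6 libraries, C1qc, C1qa and Padi2 were the genes closest to Gpc1. Their root mean square differences were 0.43, 0.53 and 0.64, against a median of 3.61 over 13503 genes. For Gpc1 this profile is set mostly by the difference between the groups, which was log2 7.07, 6.96 and 7.18 in those genes. The closeness therefore does not speak to a pattern within the bleomycin group. The genes closest to Sulf2 were Itgal, Myo7a and Usp22, at 0.04, 0.05 and 0.05 against a median of 0.36.

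Marker lists of other cells differed between the groups as well, not all in 1 direction. Summed B cell markers (5 genes) were 6.36 to 8.83 in saline and 34.1, 459 and 297 in bleomycin replicates 1, 2 and 5, and summed T cell markers (7 genes) were 23.9 to 38.2 in saline and 189, 511 and 592 in bleomycin. By limma 7 of 7 T cell genes and the 1 testable B cell gene, Cd79a, rose, where 9.76% of all tested genes were called higher. These T cell genes and Cd79a passed the filter on low values only through their bleomycin libraries. The same held below for Igkc, Ighm, Krt8, Treml1 and Kit, and for the fibroblast genes Col1a2, Col3a1, Dcn and Pdgfra. Pax5 was at 0 in saline. Both lists were lowest in bleomycin replicate 1, at 0.0902 and 0.342 times the mean of the other two, and the monocyte list was at 0.563 times, while the epithelial and fibroblast lists were at 1.51 and 1.91 times. Of 10 plasma cell markers the sum was 17479 to 20598 in saline and 14498 to 16294 in bleomycin, nearly all of it Xbp1 and Prdm1, which macrophages also express. Of 6 plasma cell genes tested 2 rose, the antibody chain genes Igkc and Ighm, and 1 fell, Derl3. Igkc was 0 in every saline library and 15.3, 303 and 193 in bleomycin replicates 1, 2 and 5, and Ighm was 9.78 to 11.8 in saline and 50.3, 586 and 386 in bleomycin. Both were lowest in bleomycin replicate 1, as were the summed B cell, T cell and monocyte lists. All the chosen genes but Ext2 were also lowest in that library, so this is not particular to Sdc1 and Gpc1. Igha was 2.17 to 29.7 in saline and 51.2 to 118 in bleomycin, and Mzb1 was at most 1.96 in saline and 1.8 to 13.2 in bleomycin. Jchain, Tnfrsf17 and Ighg1 were at 7.76 or less in every library. The epithelial list (8 genes) summed to 24642 to 31877 in saline and 11777 to 18977 in bleomycin, most of it Krt19 and Epcam. Its members Krt8 and Krt18 ran the other way, from 6.52 to 28.6 and 13.7 to 23.3 in saline to 151 to 324 and 177 to 418 in bleomycin. Sftpc, the type 2 cell surfactant protein, was at 36.9 to 46.1 in saline and 206 to 479 in bleomycin. By limma 4 of the 8 epithelial genes rose and 2 fell, with Krt8, Krt18 and Sftpc among those that rose. Within the bleomycin group, Krt19, Epcam and Cdh1 were highest in replicate 1. In that library Krt8, Krt18, Sftpc, Cldn18 and Scgb1a1 were lowest, so the epithelial sum does not speak for every gene of its list. Of 6 fibroblast genes tested 2 rose by limma, where 9.76% of all tested genes were called higher. Most of these 6 were testable only through their bleomycin values. Summed fibroblast markers (8 genes) were 35.3 to 338 in saline and 229 to 877 in bleomycin, and Lum was 0 in saline. The part of these cells in the values of Sdc1, Sdc2, Sdc4, Gpc1 and Hpse was not tested. Platelets and mast cells are known to hold heparanase. Of 3 platelet genes tested 1 rose, Treml1, from 5.3 to 6.52 in saline to 32.3 to 47.4 in bleomycin. Ppbp and Gp9 were at 3.45 or less in every library, and the sum of 6 markers was 61.8 to 75 in saline and 65.6 to 116 in bleomycin. Of the mast cell markers Cpa3 was at 4.35 or less and Tpsb2 at 0 in every library but saline replicate 2, while Kit was 6.36 to 35.3 in saline and 109.6 to 260.3 in bleomycin and rose. Endothelial sums were 2104 to 2330.5 in saline and 2682 to 3051 in bleomycin, nearly all Vwf, with Kdr and Tie1 at 0 in saline. Neutrophil sums were 2552 to 3860.2 in saline and 5669 to 6596 in bleomycin, and by limma 3 of 5 tested neutrophil genes rose and 0 fell.

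**Figure D3:**
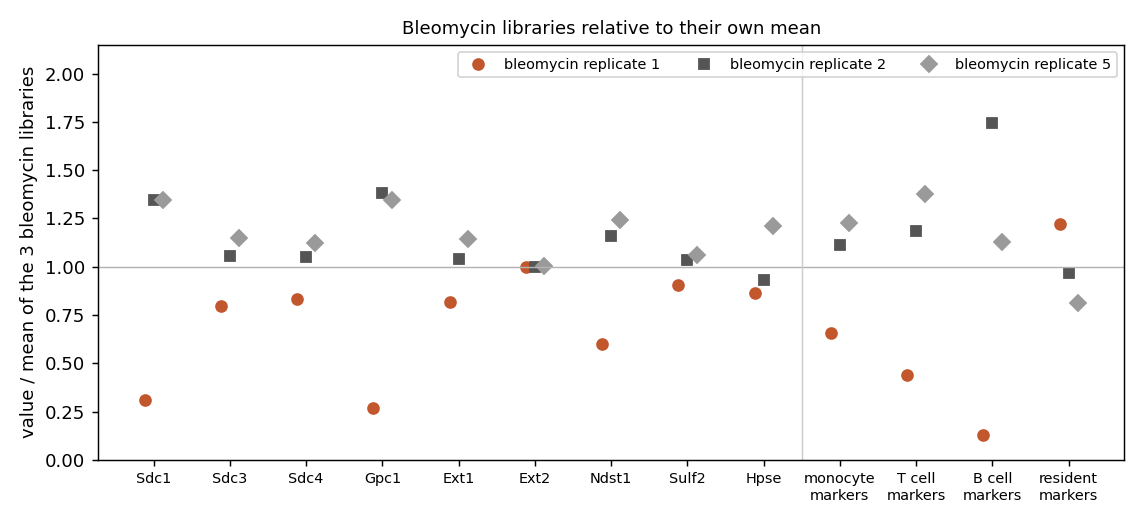
Value in each bleomycin library divided by the mean of the 3 bleomycin libraries, for 9 of the genes (Sdc2 left out for its few reads) and for summed marker lists. Bleomycin replicate 1 lies at 0.311 for Sdc1 and 0.269 for Gpc1 but at 0.862 for Hpse and 0.83 for Sdc4.

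The rest of the heparan sulfate pathway was examined as 6 lists of other genes, chosen with earlier results of these data known. Of 60 genes listed, 52 were in the table and 39 passed the filter. With limma, 9 of the 39 rose and 0 fell (adjusted p under 0.05), where 9.76% of all tested genes were called higher and 3.9% lower (13.7% in either direction). The median log2 difference was 0.26, against -0.01 over all tested genes. Since the lists were so chosen, no excess over all tested genes is read from these figures. At an unadjusted p under 0.05 there were 17 higher and 1 lower, edgeR called 0 lower, and DESeq2 called 1 lower. Papss2 (chromosome 19, 32595790 to 32667187), which makes the sulfate donor that all sulfotransferases use, rose most among them. Its value went from 7.53 ± 4.93 in saline to 439 ± 129 in bleomycin libraries (log2 5.87 ± 0.52, 58.7-fold, adjusted p = 0.000275), and it passed in all 17 alternatives, with a log2 difference of 5.26 without saline replicate 3. Papss2, and Hspg2 and Sulf1 below, passed the filter on low values only through their bleomycin libraries. It was the only 1 of 9 donor genes to pass, and its close relative Papss1 was at 1734.6, 1737 and 1791 in saline, against 1717.5, 1560.2 and 1479 with bleomycin (log2 -0.15 ± 0.11, adjusted p = 0.464).

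Of the linker enzymes and polymerases, 3 of 8 tested rose. Xylt1 and Xylt2, the xylosyltransferases that attach the first sugar of the linker to a carrier, rose 2.13-fold and 2.09-fold (limma adjusted p = 0.0201 and 0.00583), from 813 ± 160.2 to 1772 ± 541 and from 345 ± 48.5 to 727 ± 129. Extl3, which starts the heparan chain on the linker, rose 1.51-fold from 986 ± 74.8 to 1496 ± 238 (adjusted p = 0.0307). Of 5 sulfotransferases and epimerase genes tested, Hs2st1, which sulfates the uronic acid, rose 1.46-fold from 658 ± 43.2 to 966 ± 88.5 (adjusted p = 0.024). The first linker steps are shared with chondroitin sulfate, so Xylt1 and Xylt2 do not belong to heparan sulfate alone. Leaving out any 1 of saline replicates 2 and 3 and bleomycin replicates 2 and 5 ended the limma call of Xylt1 (adjusted p = 0.0694 to 0.0791) and of Hs2st1 (0.0676 to 0.135), and Extl3 did not pass without any library but bleomycin replicate 1 (0.0578 to 0.144).

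Of 9 enzymes that break the chain down in the lysosome, 3 rose. Sgsh, the sulfamidase that takes sulfate from the amino group, rose 7.33-fold from 23.3 ± 2.74 to 196 ± 93.5 (log2 2.87 ± 0.41, limma adjusted p = 0.00258). Naglu, an N-acetylglucosaminidase, rose 1.42-fold from 2995 ± 88.1 to 4238 ± 34.6 (adjusted p = 0.00946), and the sulfatase Arsg 1.45-fold from 468 ± 55.6 to 678 ± 53.2 (adjusted p = 0.0427). Sgsh shares 21.6% of its exon bases with Card14 on the opposite strand, which was at 0 to 13.2. Naglu did not pass without bleomycin replicate 2 or 5 (0.0573 and 0.0567), and leaving out any 1 of those 2 or of saline replicates 2 and 3 ended the call of Arsg (0.0825 to 0.191).

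Of 7 other carriers tested, only Hspg2, which encodes the basement membrane carrier perlecan, was called. The saline libraries together held 1 read of it and the bleomycin libraries 79, which is 71.5 times as much after scaling (95% interval from counting error alone, 12.5 to 2861) (limma adjusted p = 0.00201). Cd44, a hyaluronan receptor that carries heparan sulfate in some splice forms, was the most abundant and had 67958, 60359 and 61557 in saline, against 51267, 51394 and 47568 with bleomycin (log2 -0.34 ± 0.12, adjusted p = 0.114). The groups did not overlap, and by DESeq2 it was called lower (adjusted p = 0.0247). Sulf1, the sister of Sulf2, was low, at 0 to 6.52 in saline and 10.8 to 26.7 in bleomycin libraries (adjusted p = 0.0964). Over the 6 lists the count of rises was 4 without bleomycin replicate 2 or 5, 5 without saline replicate 2 or 3, and 9 with saline replicate 2 and bleomycin replicate 1 both dropped, a choice made after seeing the data.

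**Figure D4:**
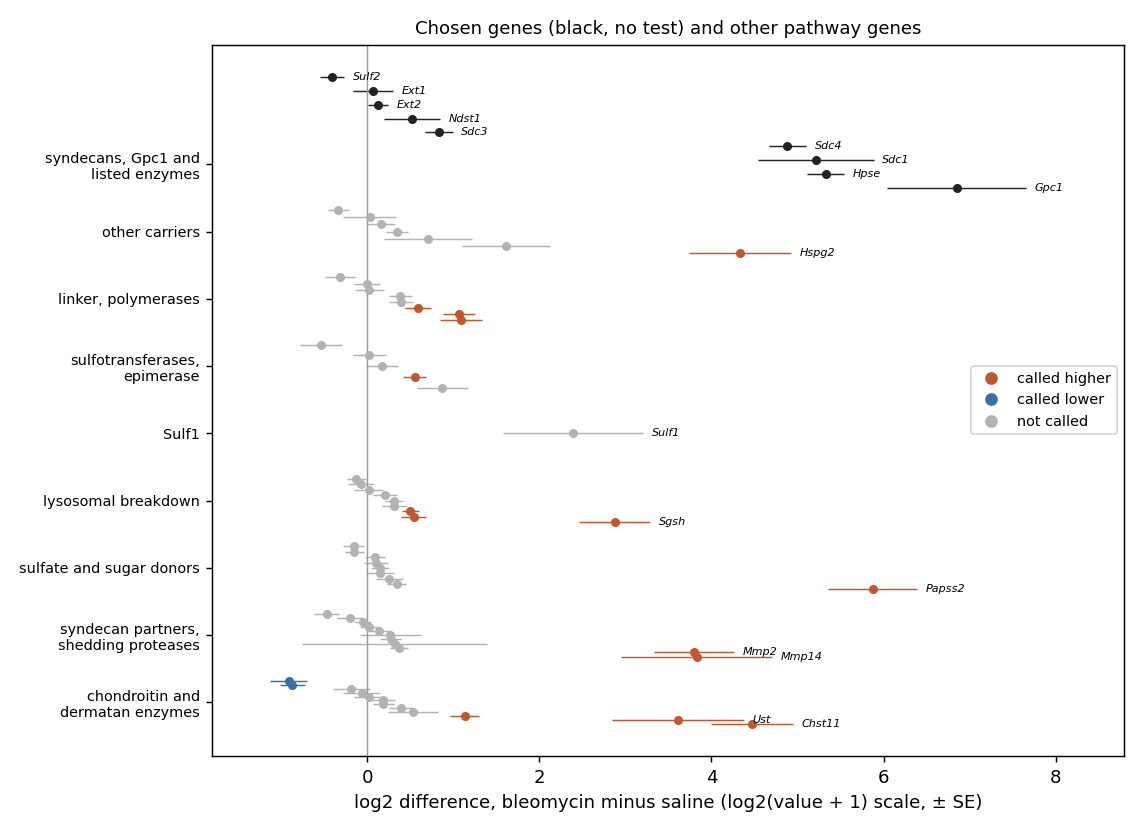
Log2 difference between bleomycin and saline libraries with its SE for 9 of the chosen genes (black, no test) and for tested genes of the other lists (orange called higher, blue called lower, grey not called, by limma at an adjusted p under 0.05). Gpc1 at 6.85 and Papss2 at 5.87 lie farthest to the right, and most sulfotransferase, lysosomal and donor genes lie near 0.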

How the data were processed

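Adherent lavage cells in 6 libraries were compared by labelled treatment. The submitters' processing notes name bcl2fastq (2.18.0.12), STAR (2.5.2b), HTSeq (0.6.0), DESeq2 and build mm10; which step each served, the annotation and the strand setting were not given in the sources used here. What the authors deposited is a normalized signal, in which gene reads are divided by 1 size factor per library. In 100% of values the reads came out whole, within 0.05 of a read. Symbols matched 22873 identifiers, and positions and exon lengths came from GENCODE on GRCm38, the assembly that mm10 names. Genes at 10 or more in at least 3 libraries were tested with limma 3.58.1 (R 4.3.3) on log2(value + 1), two-sided, with an intensity trend, group as the only term and Benjamini-Hochberg adjustment over all tested genes. On simulated data for this comparison (13512 genes drawn, 13177 tested), 75.3% of the 2-fold changes and 100% of the 4-fold changes were found, and 6.18% of calls were false. The simulation gave every gene the same dispersion between replicates, raised the means of low genes to 10 and held no deviant library. These rates therefore check the code and do not give the rates for the real libraries. The recovered reads were also tested with edgeR 4.0.16 (1821 calls) and DESeq2 1.42.0 (2313 calls).

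The genes and lists were chosen with earlier results of these data known. From each other list the rule named the 4 called genes of smallest p, or, with none called, the 2 of highest mean, and it named the 3 genes nearest in profile to the chosen genes with the largest rise and the largest fall. Cd44, Papss1, Hs6st1, Chst15 and single marker genes were named after their values were seen. Alternatives were other scalings, filters, pseudocounts and tools, and each library left out in turn.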

Additional observations from a re-analysis of the deposited data

How the results depend on the processing

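Over 17 alternatives no direction of a called result reversed. The 1319 genes called higher and 527 called lower by limma became 768 to 1457 and 183 to 624 when 1 library was left out, with 787 and 768 higher without bleomycin replicates 2 and 5. Of the other heparan sulfate pathway genes, 9 were called higher, and 4 to 9 with 1 library left out. DESeq2 added 1 lower call, Cd44, where limma had 0. Quantile normalization moved the share of higher calls from 71.5% to 61%. Replicate numbers 1 and 2 occur in both groups, but the correlations of deviations were -0.20 and 0.02, so they are not shown to pair libraries. With the replicate block, which uses only those numbers, 194 genes were called lower, 3 pathway genes higher and 1 lower (Hs6st1). Sdc2 depends on the pseudocount, with log2 differences of 1.13 to 3.62. Dropping both saline replicate 2 and bleomycin replicate 1 was chosen after seeing the data. It moved Ext1 to 0.47 and gave 1597 higher and 607 lower calls. Depth limits Sdc2, and Sdc1 and Gpc1 in saline, which rest on 0, 26 and 8 reads over the group.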

Other observations

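Some proteases that shed syndecans and some enzymes of the related chondroitin and dermatan sulfate chains passed the test, most did not. Of 11 tested syndecan partners and shedding proteases, 2 rose and 0 fell by limma, where 9.76% of all tested genes were called higher and 3.9% lower. These lists too were chosen with earlier results of these data known, so nothing is read from such shares. Mmp2, a gelatinase that can shed syndecans, rose 13.9-fold from 26.5 ± 14.1 to 356 ± 146 (n = 3 each, limma adjusted p = 0.0013). Mmp14, the membrane protease that activates the Mmp2 product, rose from 779 ± 1075 to 5407 ± 1671 (log2 3.83, limma adjusted p = 0.0219). Its saline values were 126, 2019.8 and 191, replicate 2 being high, and without that library the log2 difference was 5.06. The ratio of the group means was 6.94, and edgeR gave a log2 difference of 2.78. The Mmp14 call was lost with edgeR (adjusted p = 0.0909), with DESeq2 (0.083) and when any 1 of saline replicates 1 and 3 and bleomycin replicates 2 and 5 was dropped (limma, 0.0585 to 0.0837).

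Of 12 tested chondroitin and dermatan sulfate enzymes, 3 rose, 2 fell and 7 were not called. Of the 3 that rose, Chst11 and Ust passed the filter on low values only through their bleomycin libraries. Chst11, a chondroitin 4-O-sulfotransferase, rose 22.2-fold from 10.3 ± 4.14 to 265 ± 130 (limma adjusted p = 0.000637). Chst14, the dermatan 4-O-sulfotransferase, rose 2.19-fold from 127 ± 10.1 to 279.6 ± 17 (limma adjusted p = 0.00313). Ust, a uronyl 2-O-sulfotransferase, rose 12.2-fold from 2.03 ± 1.96 to 34 ± 18.7 (limma adjusted p = 0.0155) and was not called without bleomycin replicate 2 (0.0825) or 5 (0.078). Its log2 difference was 3.61, and 2.95 without saline replicate 3. The chain polymerising factor Chpf fell 1.83-fold from 1715 ± 36.1 to 948 ± 172 (limma adjusted p = 0.00521), and Chst15, which adds a second sulfate to chondroitin, fell from 743 ± 244 to 381 ± 25.9 (adjusted p = 0.0254). The Chst15 call was lost without bleomycin replicate 2 (limma, 0.0639) or 5 (0.0954) and with no intensity trend (0.0645), and its exons share 17.9% of their bases with the antisense gene Gm10584. Whether other cells in the lavage contributed to these values was not tested.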
